A study of Mus musculus with 12 samples.

Results

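The genes described are Slc2a1, which encodes glucose transporter 1, and 9 genes of glucose breakdown to lactate: Hk2, Gpi1, Aldoa, Tpi1, Gapdh, Pgk1, Pgam1, Eno1 and Ldha. They were chosen by name, but with earlier results of these data known. All 10 were found among the 23937 genes of the deposited table and passed the filter on low values. RNA was sequenced from mouse CD8 T cells sorted from brain at day 3 and day 30 after stroke, from the brain of naive mice and from naive blood, with 3 libraries in each of the 4 groups. The sorting protocol names spleen as the source, whereas each sample's own labels name brain or blood, and those labels define the groups. The sources used here give no strain, age, stroke model or cell number. Whether the 3 samples of a group are separate mice is not stated, and the p-values therefore measure only how far these samples spread, which can be technical.

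Glycolysis splits 1 glucose into pyruvate and yields ATP without oxygen, and lactate dehydrogenase turns pyruvate into lactate while it regenerates the NAD+ that Gapdh needs. Activated CD8 T cells are known for raising glucose uptake and glycolysis, and resting T cells for burning fuel mostly in mitochondria. The transcription factors Hif1a and Myc are known to raise transcription of many of these genes, and most of the enzymes are also abundant in other cells, microglia and macrophages included.

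The promoters are shown because a short DNA word is known to be bound by hypoxia-inducible factors in several of them. The 250 bases before each annotated start were searched for ACGTG and GCGTG on both strands, so that CACGT and CACGC were counted as well, and overlapping matches each counted. In RefSeq on GRCm38.p6, 8 of the 10 genes had at least 1 match before 1 of their starts, against 41.5% of 27025 genes. A gene with more starts has more chances of a match. Counted by start, 12 of 15 had a match, against 38.6% of 32851, and windows of the same gene can overlap. Ldha had the most before a single start, with 5 matches, of which 2 pairs overlap as the palindrome CACGTG. Before its other start it had 1. Gpi1 had none, and neither did Tpi1. Capitals mark the matches. A match is only a description of the letters and shows no binding. The windows shown are chr7:46845554-46845803 (Ldha, plus strand), chrX:106186850-106187099 (Pgk1, plus strand), chr19:41911621-41911870 (Pgam1, plus strand), chr6:82774455-82774704 (Hk2, minus strand) and chr7:34230337-34230586 (Gpi1, minus strand), each written 5′ to 3′ along the gene.
Ldha: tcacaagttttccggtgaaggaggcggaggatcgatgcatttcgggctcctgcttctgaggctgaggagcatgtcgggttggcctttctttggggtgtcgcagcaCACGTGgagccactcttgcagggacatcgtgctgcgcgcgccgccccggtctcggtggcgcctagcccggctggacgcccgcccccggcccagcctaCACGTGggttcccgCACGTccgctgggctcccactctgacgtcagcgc
Pgk1: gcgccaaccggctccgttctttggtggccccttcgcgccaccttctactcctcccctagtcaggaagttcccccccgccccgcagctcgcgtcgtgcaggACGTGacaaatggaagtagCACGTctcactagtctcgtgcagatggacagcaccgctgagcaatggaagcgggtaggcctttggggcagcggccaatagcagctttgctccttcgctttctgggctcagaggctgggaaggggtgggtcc
Pgam1: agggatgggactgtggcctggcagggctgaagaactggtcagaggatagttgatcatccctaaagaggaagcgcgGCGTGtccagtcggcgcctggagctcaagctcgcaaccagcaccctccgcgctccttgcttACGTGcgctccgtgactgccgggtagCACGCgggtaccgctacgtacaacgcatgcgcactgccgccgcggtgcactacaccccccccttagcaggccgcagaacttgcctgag
Hk2: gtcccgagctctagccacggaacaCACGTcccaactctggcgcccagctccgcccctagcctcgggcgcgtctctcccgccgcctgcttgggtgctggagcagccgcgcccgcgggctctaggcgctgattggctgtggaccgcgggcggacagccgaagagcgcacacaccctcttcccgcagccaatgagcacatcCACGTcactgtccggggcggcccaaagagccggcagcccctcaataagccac
Gpi1: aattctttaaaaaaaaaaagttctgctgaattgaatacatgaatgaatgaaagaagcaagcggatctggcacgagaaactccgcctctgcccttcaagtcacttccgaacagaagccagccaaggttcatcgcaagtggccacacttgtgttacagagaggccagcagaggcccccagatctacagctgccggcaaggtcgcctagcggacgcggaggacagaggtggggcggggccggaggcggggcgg

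Values are CPM (read counts relative to a scaled library size), and differences are on the scale of log2(CPM + 1) with their standard errors, so they understate the change of low genes. A gene was called where the adjusted p of limma was under 0.05. Libraries held 1104490 to 21014171 reads, and 3 reads, the upper limit behind a count of 0, were worth 0.298 to 1.65 CPM. Libraries differed in the reads on 1484 receptor genes of smell and taste, taken as a measure of library background: 164 to 873 unscaled CPM in 5 libraries (day 3 brain 1, day 30 brain 1 and all 3 of naive brain) and 2006 to 7813 in the other 7. The same 5 libraries were also the deepest, at 3469973 to 21014171 reads against 1104490 to 2141262 in the other 7. They had the highest sums of deposited CPM as well. Background, depth and scaling therefore cannot be told apart in this split. The 12 T cell markers in the table had reads in every library and summed to 0.0722% to 0.231% of reads at day 3, 0.469% to 1.23% at day 30, 0.637% to 0.844% in naive brain and 0.330% to 0.468% in naive blood. Markers of microglia, the resident macrophages of brain, summed to 0.408% to 1.59% at day 3, 0.208% to 0.610% at day 30, 1.14% to 2.30% in naive brain and 0.0210% to 0.0561% in naive blood. None of the 14 microglia markers was at 0 in any library.

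Together the 10 genes took 0.341%, 0.145% and 0.112% of reads in day 3 brain 1, 2 and 3, and 0.339%, 0.0775% and 0.0896% in day 30 brain 1, 2 and 3, against 0.227%, 0.403% and 0.345% in naive brain and 0.0415%, 0.130% and 0.0661% in naive blood. The 95% Wilson interval was 0.336% to 0.346% in day 3 brain 1 and 0.138% to 0.152% in day 3 brain 2, and intervals cover counting error only. Replicate 1 of each stroke group lay inside the naive brain range, and replicates 2 and 3 lay below it. Of the latter, day 3 brain 2 lay above every blood library and the others lay within the blood range. The share was 0.227% to 0.403% in the 5 libraries with few receptor-gene reads and 0.0415% to 0.145% in the 7 with many, with no overlap. In 6 of the 10 genes (Gpi1, Aldoa, Tpi1, Gapdh, Eno1 and Ldha) all 5 libraries with few such reads lay above the other 7, against 6.78% of all tested genes.

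**Figure D1:**
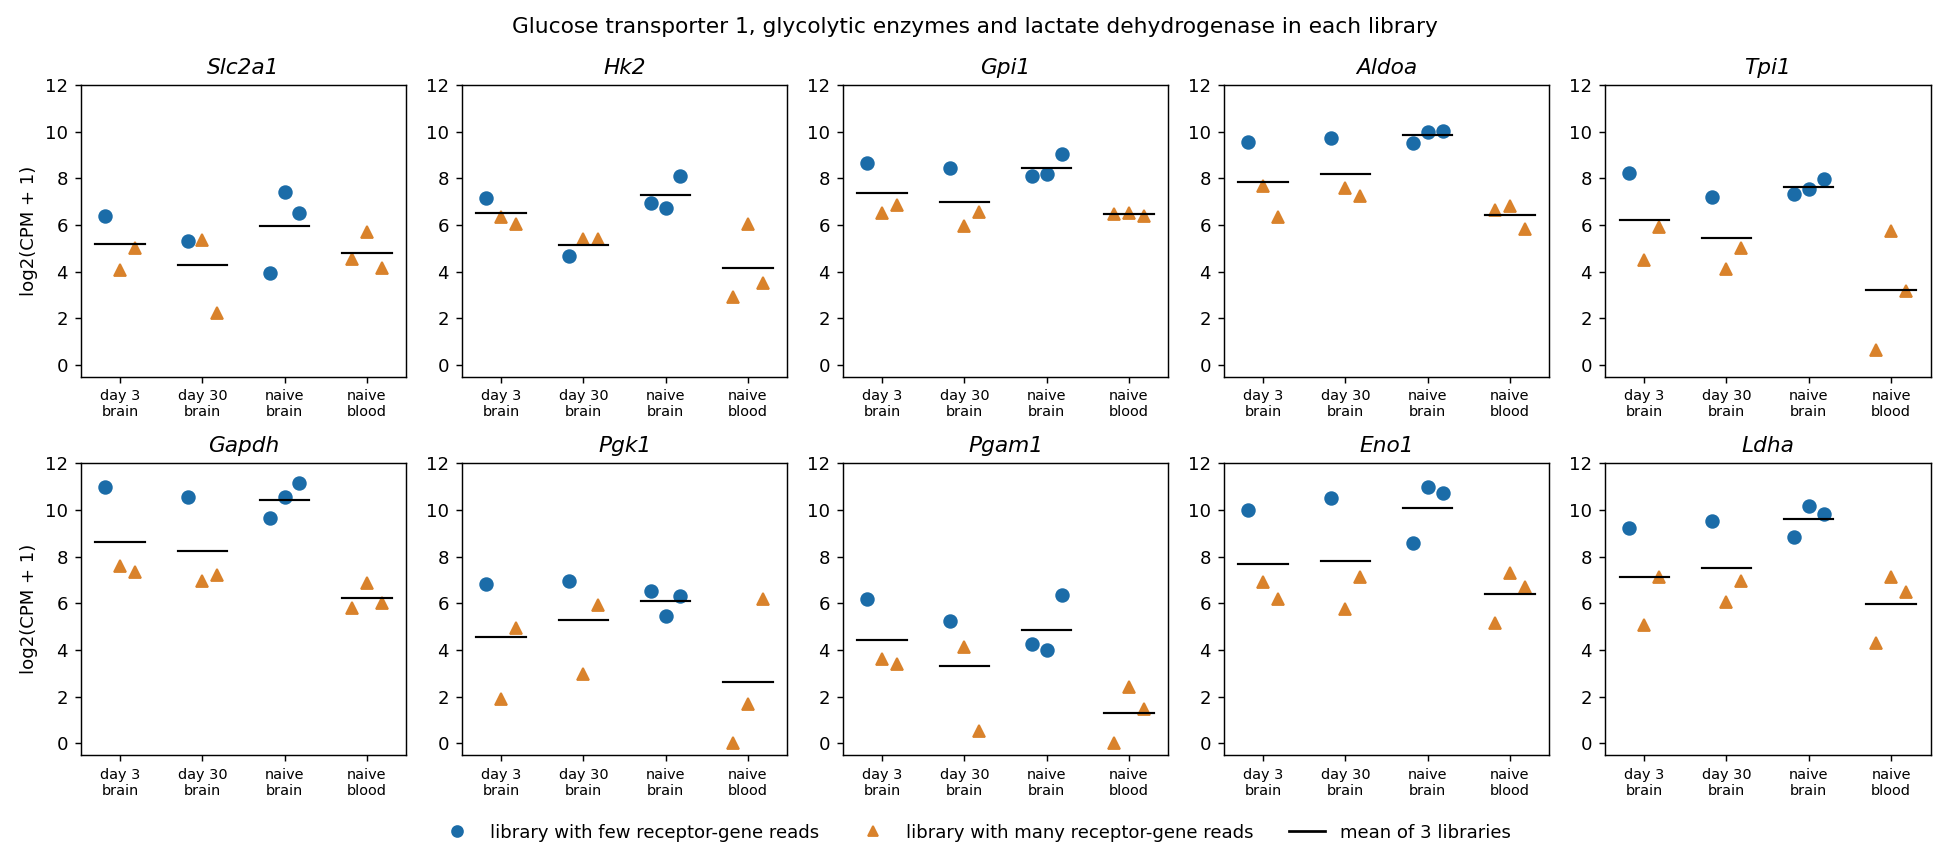
Level of each of the 10 genes in log2(CPM + 1), vertical axis, in the 12 libraries by group, with lines at the group means. Circles are libraries with few and triangles libraries with many reads on receptor genes. Replicate 1 of day 3 and of day 30 sits with naive brain in most panels, while replicates 2 and 3 sit near naive blood.

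Glucose transporter 1 had no clear order between the groups. Slc2a1 (chr4:119108711-119137983) carries glucose across the cell membrane. It had 83.4, 15.9 and 31.6 CPM at day 3 and 38.5, 39.9 and 3.61 CPM at day 30, against 14.3, 172 and 89.8 CPM in naive brain, and against 22.2, 51.0 and 16.5 CPM in naive blood. Naive brain alone spanned nearly the whole range, and all groups overlapped.

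Hexokinase 2 was the only gene of the 10 with all day 30 libraries below those of day 3, a pattern that 5.65% of all tested genes had and in which it was not called. Hk2 (chr6:82725025-82774454) traps glucose in the cell by phosphorylating it. It had 142, 80.5 and 64.8 CPM at day 3 and 24.7, 40.9 and 41.1 CPM at day 30, against 123, 104 and 276 CPM in naive brain, and against 6.49, 64.7 and 10.6 CPM in naive blood. All 3 day 30 libraries lay below all 3 of day 3 and all 3 of naive brain, and day 30 brain 1 was the lowest of them. Gpi1 (chr7:34201330-34230336) turns glucose 6-phosphate into fructose 6-phosphate. It had 406, 89.6 and 116 CPM at day 3 and 350.5, 61.5 and 93.9 CPM at day 30, against 271, 289 and 519.6 CPM in naive brain, and against 88.7, 90.5 and 81.7 CPM in naive blood. Replicate 1 of both stroke groups lay inside the naive brain range, and the other stroke libraries were near the blood level.

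The enzymes that split the sugar and interconvert the products were high in naive brain and in replicate 1 of each stroke group. Aldoa (chr7:126795234-126800751) is the aldolase of muscle and most other cells and splits fructose 1,6-bisphosphate. It had 759.5, 201 and 80.3 CPM at day 3 and 846, 189 and 149 CPM at day 30, against 727, 1024 and 1052 CPM in naive brain, and against 97.9, 110.3 and 54.9 CPM in naive blood. Day 30 lay above blood in every library. Tpi1 (chr6:124810586-124814296) interconverts the 2 triose phosphates. It had 299.9, 21.8 and 58.9 CPM at day 3 and 147, 16.1 and 31.6 CPM at day 30, against 162, 183 and 250.4 CPM in naive brain, and against 0.541, 53.2 and 8.10 CPM in naive blood. Every day 30 library lay below every naive brain library, and the 0.541 CPM of blood 1 is a single read.

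Gapdh and Pgk1 carry out the steps that first return ATP. Gapdh (chr6:125161715-125166467) had 2017, 189.7 and 162 CPM at day 3 and 1503, 124 and 149 CPM at day 30, against 795, 1482 and 2257 CPM in naive brain, and against 55.2, 115 and 62.7 CPM in naive blood. All stroke libraries lay above all blood libraries, and per kilobase of exon its level ranked first among the 10 genes in 9 of the 12 libraries. Pgk1 (chrX:106187100-106203699) had 112, 2.73 and 30.0 CPM at day 3 and 123, 6.89 and 60.1 CPM at day 30, against 90.3, 43.2 and 77.6 CPM in naive brain, and against 0, 2.19 and 71.1 CPM in naive blood. Blood 3 stood apart from the other blood libraries for Pgk1 and lay within the naive brain range.

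Phosphoglycerate mutase and enolase prepare the last ATP-yielding step. Pgam1 (chr19:41911923-41918660) had 72.6, 11.4 and 9.64 CPM at day 3 and 37.2, 16.5 and 0.452 CPM at day 30, against 17.8, 14.8 and 81.7 CPM in naive brain, and against 0, 4.39 and 1.76 CPM in naive blood. The day 30 brain 3 value is under its floor of 3 reads. Eno1 (chr4:150236721-150248879) had 1025, 118 and 71.8 CPM at day 3 and 1459, 53.3 and 137 CPM at day 30, against 385, 1998 and 1699 CPM in naive brain, and against 34.1, 157 and 103 CPM in naive blood. Stroke replicates 2 and 3 lay within the blood range. The table also lists Eno1b, whose transcript is 99.5% identical to that of Eno1 over 1736 bases and whose reads exceeded those of Eno1 by 0% to 14.3% in each library, so the 2 genes cannot be told apart here.

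Lactate dehydrogenase A ends the route. Ldha (chr7:46841475-46855627) had 597, 32.8 and 138 CPM at day 3 and 727, 65.2 and 122 CPM at day 30, against 463, 1143 and 895 CPM in naive brain, and against 18.9, 137 and 87.3 CPM in naive blood. Naive brain lay above blood in every library, and only replicate 1 of each stroke group reached the naive brain range. Gapdh has 90 other genes with at least 95% identity over at least 300 bases, mostly pseudogenes, of which 4 are in the table with at most 27.3 CPM. Pgk1 has the pseudogenes Gm5537 and Pgk1-rs7, 100% identical to it over 1252 and 1255 bases. Pgam1 has Pgam1-ps2, 100% identical over 765 bases. None of these pseudogenes of Pgk1 and Pgam1 is in the table, and their part in the low counts of both genes was not tested. The handling of multiply mapped reads and of strand is not stated, and the genes Fam57b, Spsb2 and Iffo1 overlap Aldoa, Tpi1 and Gapdh on the other strand.

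In the brains of naive mice, the sorted cells gave higher values for most of these enzymes than those of naive blood. Of the 10 genes, 8 were called higher, against 6.61% of all 22352 tested genes, and 8 had all naive brain libraries above all of blood, against 15.6%. The median difference of the 10 was 3.52, against -0.37 over all tested genes. Over only the 13352 genes that reached 5 CPM in 6 or more libraries, the all-gene median was 0.49. Tpi1 was higher by 4.42 ± 0.95 (adjusted p = 0.00105) and Gapdh by 4.22 ± 0.78 (adjusted p = 0.00012). Eno1 differed by 3.71 ± 0.84, Ldha by 3.65 ± 0.82, Pgam1 by 3.56 ± 1.14, Pgk1 by 3.48 ± 1.10, Aldoa by 3.44 ± 0.73 and Hk2 by 3.11 ± 0.83, with adjusted p from 0.000946 to 0.0409. Gpi1, at 1.97 ± 0.74 (adjusted p = 0.0838), and Slc2a1, at 1.17 ± 0.94 (adjusted p = 0.421), did not pass. The count was 5 with unscaled CPM, 3 after quantile normalization, 5 with edgeR and 5 with DESeq2 on recovered reads, and 9 with median centring. The 8 calls were not equally stable over 24 alternatives. Pgk1 lost its call in 16 of them, edgeR and DESeq2 included, Pgam1 in 10 and Hk2 in 8. Tpi1, Eno1 and Ldha each kept theirs in 22, and Gapdh and Aldoa each in 23. Over all genes the called split was 1478 higher and 218 lower as deposited, 693 and 870 with unscaled CPM, 574 and 130 after quantile normalization and 1328 and 2514 with DESeq2. Without naive brain 3, or without naive blood 1, 5 of the 10 were called, and 6 or 7 without any other of the 6 libraries.

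Library background and source tissue coincide in this comparison: all naive brain libraries had few receptor-gene reads and all blood libraries many, so the 2 cannot be told apart within these groups. With background as a model term, which the stroke groups inform, 0 of the 10 were called by limma and the median difference was 0.65, but that fit called only 35 of all 22352 tested genes, against 1696 without the term. Every one of the 14 microglia markers was called higher in naive brain than in blood, as were 4 of 12 T cell markers and 4 of 11 monocyte and macrophage markers. Of 10 markers of red cells and platelets, 4 were called lower, all of them haemoglobin genes. The part of these markers in the result was not tested. In bulk RNA, fewer cells of a type and less RNA per cell cannot be told apart.

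**Figure D2:**
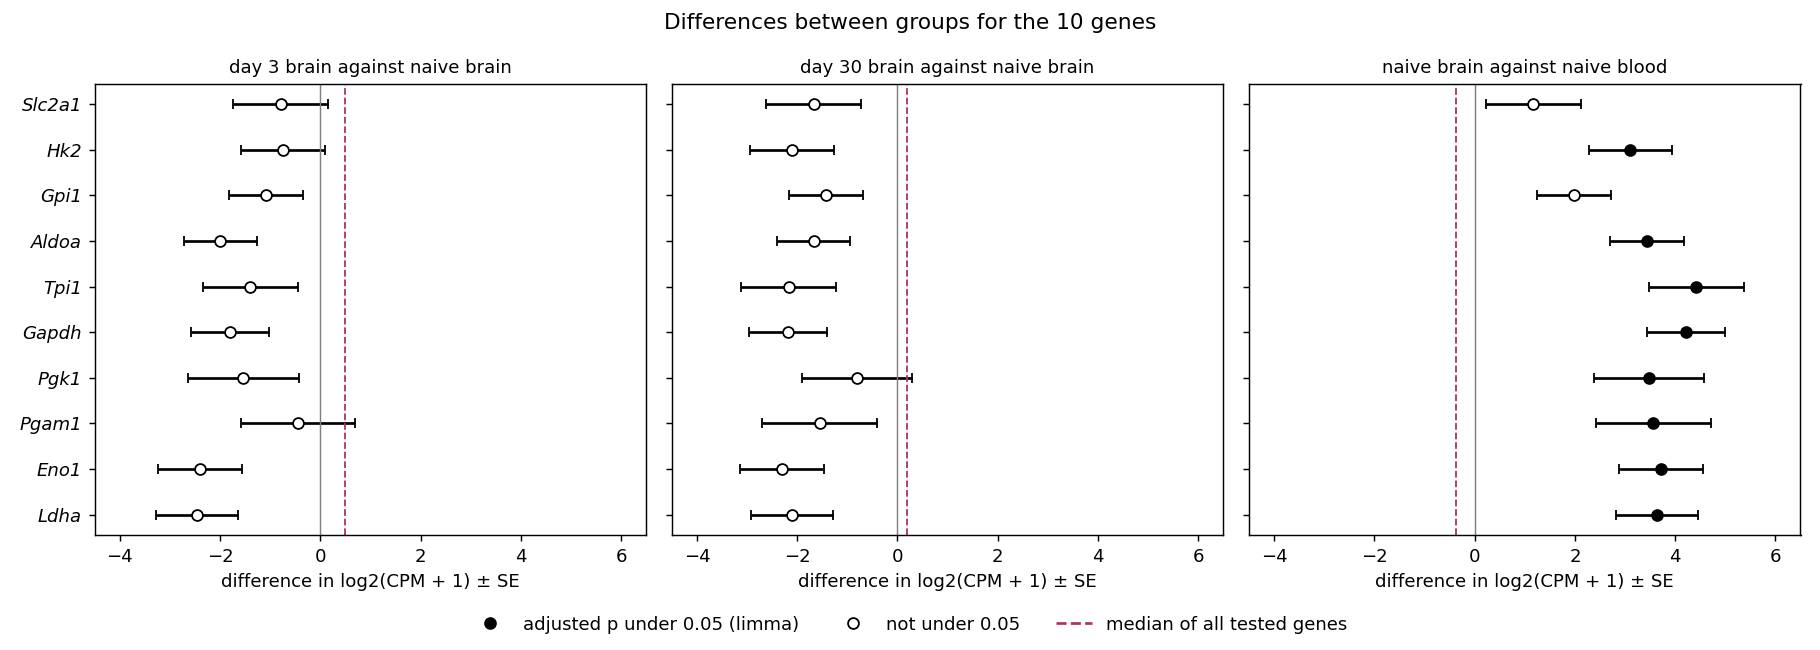
Difference in log2(CPM + 1) with its standard error, horizontal axis, for each of the 10 genes in 3 comparisons; filled points passed an adjusted p of 0.05 and the dashed line is the median of all tested genes. Only naive brain against naive blood holds genes that passed, 8 of 10, while all 10 points lie below 0 in both comparisons of stroke with naive brain (with unscaled CPM 3 of them are above 0 at day 3).

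At day 3 after stroke none of the 10 genes was called against naive brain, where 0.716% of all tested genes were. All 10 differences were negative as deposited, although 3 were positive with unscaled CPM, 2 after quantile normalization and 1 by DESeq2. They ran from -2.47 ± 0.82 for Ldha (adjusted p = 0.169) to -0.45 ± 1.14 for Pgam1 (adjusted p = 0.821), with a median of -1.47 against 0.50 over all tested genes. The all-gene median depended on low genes and was -0.35 over the 13352 that reached 5 CPM in 6 or more libraries. By limma 4 genes (Eno1, Gapdh, Ldha and Aldoa) had an unadjusted p under 0.05, as did 2870 of all 22352 tested genes. By edgeR and DESeq2 0 of the 10 did, against 2878 and 5092 of all tested genes. The group was split by day 3 brain 1, which was the highest of the 3 in all 10 genes, against 36.5% of all tested genes, and was at 1.95 to 11.5 times the mean of the other 2, with a median of 6.87 times. With unscaled CPM it was the highest in 9 of the 10, against 14.1% of all tested genes, at 0.707 to 4.17 times with a median of 2.65. Without it, Eno1, Gapdh, Ldha and Aldoa were called lower and the median was -2.53, while the calls over all genes went up to 673, of which 617 were lower, against 160 with it. The day 3 libraries left all had many receptor-gene reads and the naive brain libraries few. Stroke and library background thus cannot be told apart in that fit. Without day 3 brain 2 the median was -0.66 and 24 genes in all were called. With library background as a term, 7 of the 10 differences were positive and the median was 0.32. Among libraries with few receptor-gene reads alone (day 3 brain 1 against naive brain) the median was 0.34 and 6 were positive, but day 3 is then 1 library and 0 of all 22352 tested genes were called. With unscaled CPM the median was -0.53. Of the T cell markers, 11 of 12 were called lower at day 3 than in naive brain, as were 2 of 14 microglia markers. Of the monocyte and macrophage markers 5 of 11 were called higher at day 3, as were 4 of 10 markers of red cells and platelets, all haemoglobin genes. The part of these markers was not tested.

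At day 30 after stroke all 10 genes also averaged lower than in naive brain on the log2 scale. Again 0 of the 10 were called by limma, edgeR or DESeq2, where limma called 0.224% of all tested genes. By limma 6 of the 10 had an unadjusted p under 0.05, against 1990 of all 22352 tested genes. By edgeR and by DESeq2 1 of the 10, Hk2, had one, against 1968 and 3405 of all tested genes. The differences ran from -2.30 ± 0.84 for Eno1 (adjusted p = 0.345) to -0.80 ± 1.10 for Pgk1 (adjusted p = 0.837), with a median of -1.89 against 0.19 over all tested genes. Over only the 13352 genes that reached 5 CPM in 6 or more libraries, the all-gene median was -0.15. Hk2 differed by -2.11 ± 0.83 (adjusted p = 0.417) and Tpi1 by -2.17 ± 0.95 (adjusted p = 0.485), and these were the only 2 of the 10 whose day 30 libraries all lay below naive brain, as did 6.03% of all tested genes. Day 30 brain 1 was the highest of its group in 8 of the 10 genes, against 37.6% of all tested genes, the exceptions being Slc2a1 and Hk2. It was at 0.603 to 15.3 times the mean of the other 2, with a median of 4.76 times. With unscaled CPM it was again the highest in 8, against 22.8% of all tested genes, at 0.324 to 8.43 times with a median of 2.56. Without it, Eno1, Gapdh and Ldha were called lower, while the calls over all genes went up to 532, of which 514 were lower, against 50 with it. There too the day 30 libraries left all had many receptor-gene reads, so stroke and library background cannot be told apart. With library background as a term the median was -0.04, and among libraries with few receptor-gene reads alone it was also -0.04. Hk2 was at -2.02 with the term and at -2.58 in those libraries alone, and neither fit called any of the 22352 tested genes. Of the microglia markers, 5 of 14 were called lower at day 30 than in naive brain and 0 of 12 T cell markers were by limma, and their part was not tested. Both stroke groups are set against the same 3 naive brain libraries, so their differences are not independent.

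**Figure D3:**
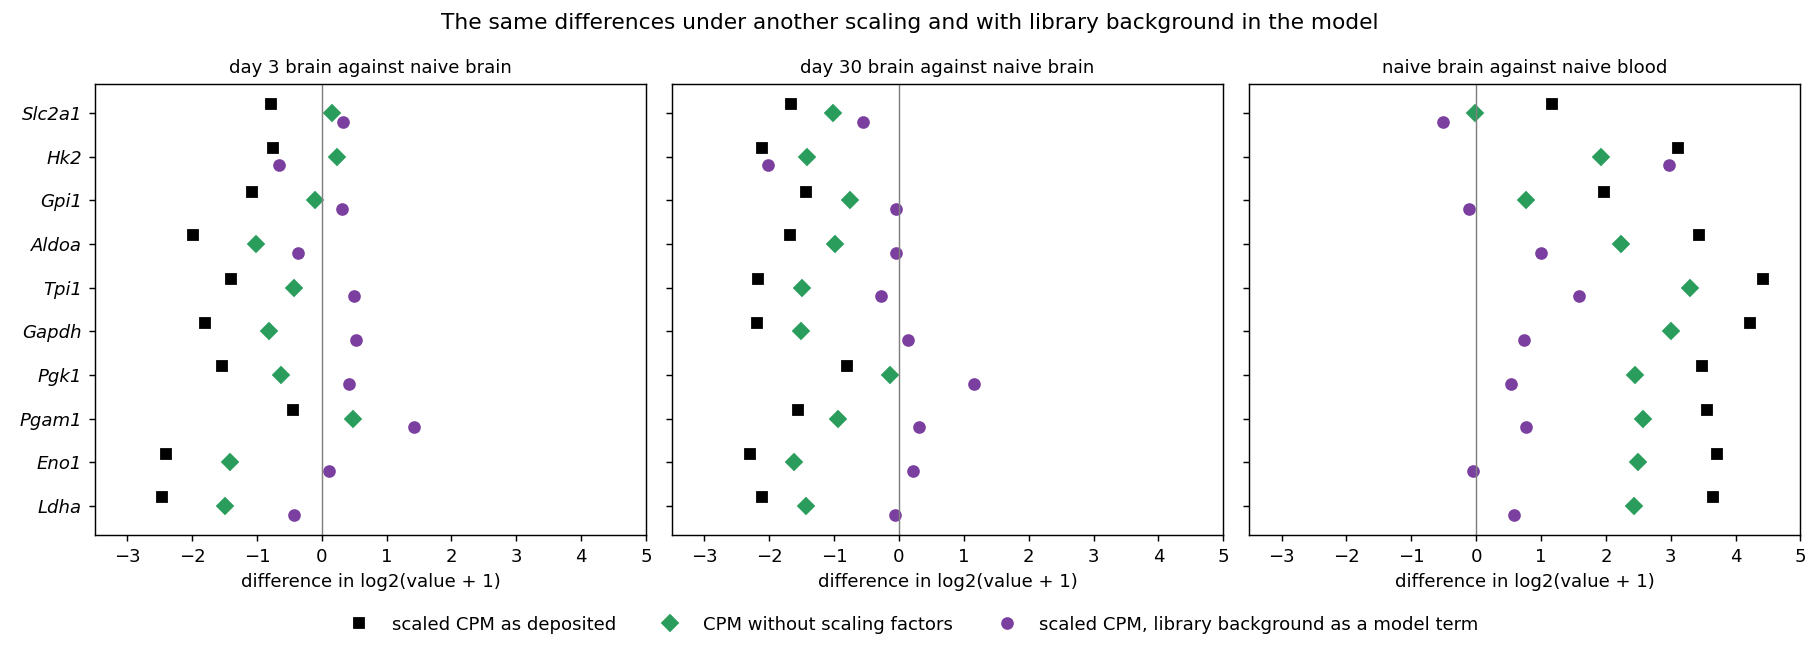
Difference in log2(value + 1), horizontal axis, of each gene under the deposited scaling, without scaling factors and with library background as a model term. For both stroke times against naive brain the points with the background term have medians of 0.32 at day 3 and -0.04 at day 30, while Hk2 at day 30 is at -2.02.

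Between the stroke times none of the 10 genes was called, where limma called 0.255% of all tested genes. By limma, edgeR or DESeq2 0 of the 10 had an unadjusted p under 0.05, against 1269 of all 22352 tested genes by limma. Differences of day 30 minus day 3 ran from -1.36 ± 0.83 for Hk2 (adjusted p = 0.95) to 0.73 ± 1.10 for Pgk1 (adjusted p = 0.999). Hk2 alone had all 3 day 30 libraries below all 3 of day 3, as did 5.65% of all tested genes. Its difference was -2.47 in the libraries with few receptor-gene reads and -0.80 in those with many. Same-numbered libraries of day 30 and day 3 deviated together, so a limma fit with replicates as blocks was also run. In it Hk2 had an adjusted p of 0.350 and still 0 of the 10 genes were called. The count over all genes was 541, against 93 in the same fit of these 2 groups without the block. This pairing was read from the same data. Replicate 1 was the only library with few receptor-gene reads at either time, so pairing and library background cannot be told apart here.

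Against naive blood most of the 10 genes averaged higher after stroke, with a median difference of 1.69 at day 3 and 1.65 at day 30, against 0.03 and -0.05 over all tested genes. Over only the genes that reached 5 CPM in 6 or more libraries, the all-gene medians were 0.07 and 0.25. Without replicate 1 of the stroke group the median of the 10 was 0.70 at day 3 and 0.93 at day 30, and with background as a term it was 0.80 and 0.91 at these times. Without blood 1 it was 0.88 at day 30. At day 3, 0 of the 10 were called by limma, where 1.18% of all tested genes were. An unadjusted p under 0.05 was found for 4 of the 10, against 1852 of all 22352 tested genes. Pgam1 differed by 3.12 ± 1.14 (adjusted p = 0.257), Tpi1 by 3.03 ± 0.95 (adjusted p = 0.113), Gapdh by 2.42 ± 0.78 (adjusted p = 0.133) and Hk2 by 2.36 ± 0.83 (adjusted p = 0.213). Without day 3 brain 1 Gapdh differed by 1.24. Hk2, Gapdh and Pgam1 had all day 3 libraries above all of blood, as did 7.54% of all tested genes. Gapdh was called after quantile normalization, by edgeR and by DESeq2, Tpi1 with the 2 groups fitted alone, and both with unscaled CPM. Without day 3 brain 2 both were called, as they were without day 30 brain 1, and without blood 2 Tpi1 was. At day 30, 0 were called by limma, edgeR or DESeq2, where limma called 0.711% of all tested genes. By limma 4 of the 10 had an unadjusted p under 0.05, against 2308 of all 22352 tested genes. Pgk1 differed by 2.67 ± 1.10, Gapdh by 2.03 ± 0.78 and Aldoa by 1.77 ± 0.73, with adjusted p from 0.297 to 0.359. Pgk1 was called without blood 3. Gapdh and Aldoa had all day 30 libraries above all of blood, as did 7.35% of all tested genes, but with unscaled CPM 0 of the 10 did. Microglia markers were called higher than in blood in 11 of 14 at day 3 and 10 of 14 at day 30. Monocyte and macrophage markers were in 5 of 11 at day 3 and 4 of 11 at day 30, and 4 of 10 markers of red cells and platelets were called lower at day 30. The part of these markers was not tested.

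Ratios within a library do not depend on its scaling. Hk1 is the hexokinase of most resting tissues, and Hk2 made up 23.7%, 45.9% and 67.4% of the reads of the pair at day 30, against 77.2%, 80.5% and 77.6% at day 3. In naive brain it made up 81.3%, 46.2% and 88.4%, against 29.3%, 65.9% and 28.8% in naive blood. The day 30 shares all lay below the day 3 shares. However, the 95% Wilson interval of day 30 brain 3, 59.11% to 74.74%, reached into those of all 3 day 3 libraries. These were 73.61% to 80.43%, 74.71% to 85.15% and 70.40% to 83.40%. Slc2a3, glucose transporter 3, is the other main glucose transporter of T cells. Slc2a1 made up 20.8%, 27.6% and 34.8% of that pair at day 30, against 64.6%, 40.7% and 56.7% at day 3. The share of day 30 brain 3 rests on 23 reads and had an interval of 18.8% to 55.1%. In naive brain it was 13.0%, 89.9% and 37.6%, against 17.0%, 72.7% and 11.8% in naive blood, so both naive groups spanned more than the stroke groups. These shares were not tested over all genes.

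Lactate dehydrogenase is built from Ldha and Ldhb subunits. Ldha made up 74.6%, 45.6% and 84.9% of the reads of the pair at day 3 and 83.6%, 73.2% and 98.5% at day 30, against 65.8%, 83.9% and 51.9% in naive brain and 57.4%, 65.5% and 92.5% in naive blood. The groups overlapped. Aldoa made up 92.6% to 100% of Aldoa and Aldoc reads in 10 of the 12 libraries, and Eno1 at least 89.3% of Eno1 and Eno2 reads in every library. Blood 2 and 3, at 42.5% and 89.1%, were the exceptions for Aldoa. Its share was 98.0%, 97.4% and 92.6% at day 3 and 99.2%, 100% and 99.4% at day 30. For this pair the day 30 shares thus all lay above the day 3 shares. Aldoc and Eno2 are the forms known from brain tissue. Against Eno3, the muscle enolase, Eno1 made up 98.4% to 98.8% in naive brain and 64.3% to 97.4% elsewhere.

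**Figure D4:**
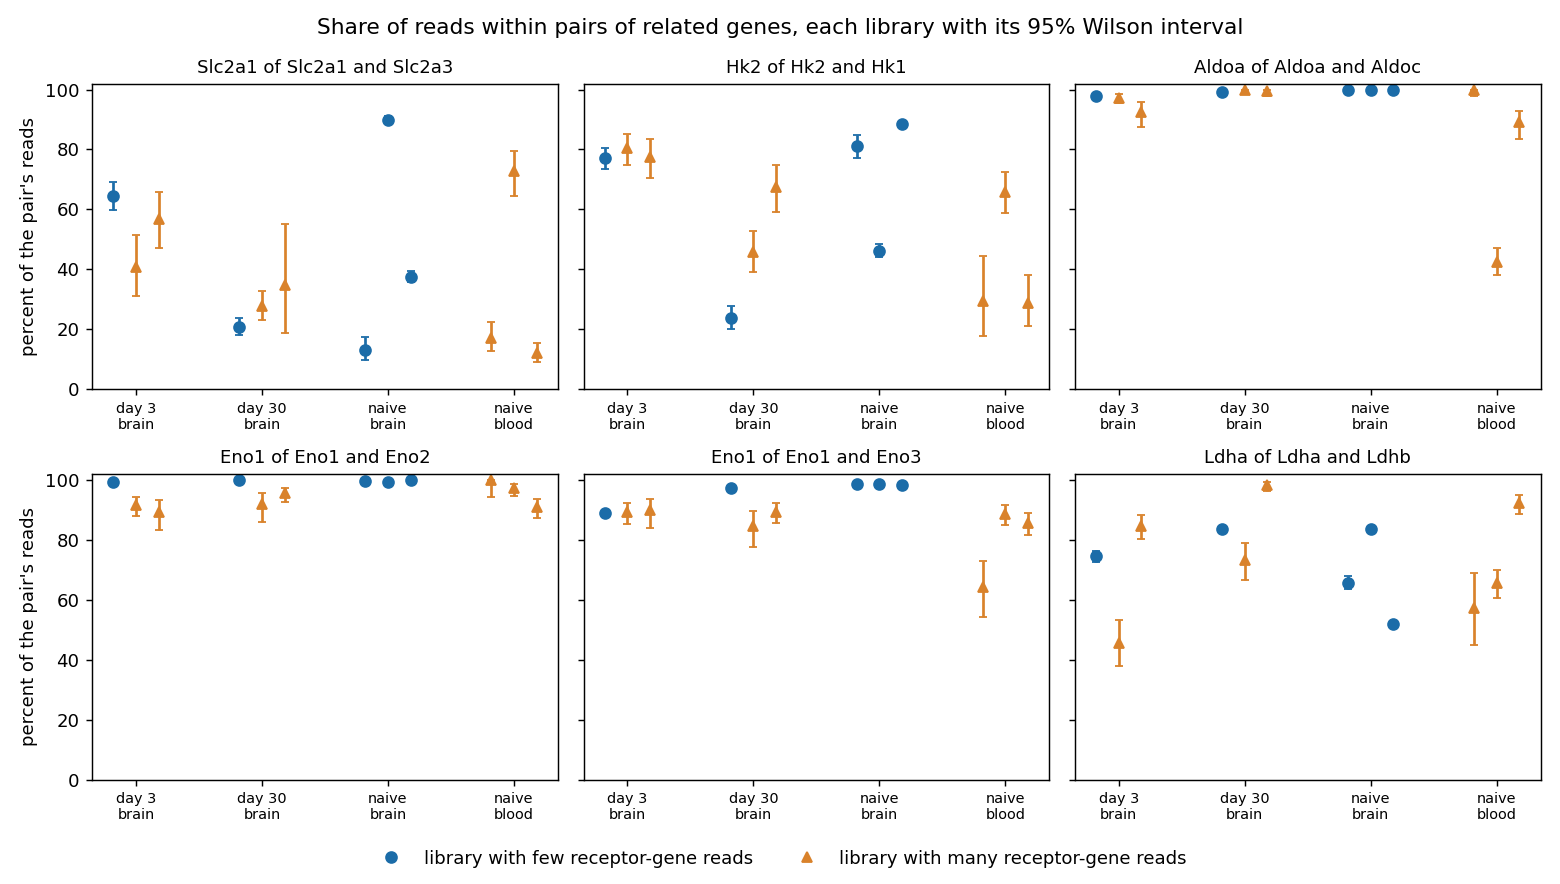
Percent of the reads of each pair that fell on the first gene, vertical axis, in each library by group, with 95% Wilson intervals. For Hk2 with Hk1 and for Slc2a1 with Slc2a3, the 3 day 30 libraries lie below the 3 day 3 libraries.

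The rest of the pathway was measured through 5 lists with 66 genes in the table. In naive brain against naive blood 8 of the 66 were called higher and 0 lower (12.1%, against 7.59% of all tested genes in either direction), with a median difference of 0.10. Among 15 other glycolytic enzymes and isoenzymes these were Ldhb at 4.10 ± 0.95, Bpgm, which makes 2,3-bisphosphoglycerate, at 3.30 ± 1.05, and Pkm, the pyruvate kinase of T cells and many other tissues, at 2.66 ± 0.87. Among 9 other glucose and lactate transporters they were Slc2a5, a fructose carrier known from microglia, at 2.93 ± 0.97, and Bsg, which brings lactate carriers to the membrane, at 2.68 ± 0.76. Taldo1 of the pentose phosphate route was at 2.94 ± 0.79, the only gene called of 11 there. Of 18 regulators and hypoxia targets, Egln2, an oxygen-sensing prolyl hydroxylase, was at 3.94 ± 1.02 and Myc at 3.72 ± 0.85. The 13 genes that control flux and pyruvate entry, phosphofructokinases among them, had 0 calls by limma. With library background as a term 0 of the 8 passed, and Slc2a5 lost its call in 14 of 24 alternatives, more than any other of them.

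After stroke 1 of the 66 listed genes was called against naive brain at each time, and both were lower. That is 1.52%, against 0.716% of all tested genes at day 3 and 0.224% at day 30. Myc had 63.4, 12.3 and 11.8 CPM at day 3, against 110.0, 476 and 332 CPM in naive brain, a difference of -3.55 ± 0.85 (adjusted p = 0.0237). All day 3 libraries lay below naive brain, as did 8.50% of all tested genes. Its call was lost in 13 of 25 alternatives, among them without day 3 brain 2 or 3 and without naive brain 2 or 3 (adjusted p = 0.147 to 0.233), and with library background as a term (adjusted p = 0.849). Ldhb had 142, 23.9 and 1.81 CPM at day 30, against 241, 220.0 and 829.9 CPM in naive brain, a difference of -4.04 ± 0.95 (adjusted p = 0.0431). This call was lost in 15 of 25 alternatives, among them without day 3 brain 1, day 30 brain 2 or 3 or any 1 of the naive brain libraries (adjusted p = 0.0936 to 0.723). Without day 30 brain 3 the difference was -2.57. Between day 30 and day 3, and for either time against blood, 0 of the 66 were called by limma. Of all tested genes 0.255% were called between the times, and 1.18% at day 3 and 0.711% at day 30 against blood.

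The 5 genes whose profile over the 12 libraries was most like the mean profile of the 10, among 10775 candidates, were Coro1b, Bsg, Arpc4, Actg1 and Sqstm1, with root mean square differences of 0.30, 0.32, 0.42, 0.44 and 0.45 in log2 units. Coro1b, an actin-binding coronin, had 484, 76.9 and 124 CPM at day 3 and 519, 54.6 and 51.5 CPM at day 30, against 287, 407 and 792 CPM in naive brain, and against 26.5, 88.3 and 40.1 CPM in naive blood. It too was highest in replicate 1 of each stroke group. Of the 10 genes themselves, Gapdh was closest to their mean, at 0.56, and Pgk1 farthest, at 1.56, followed by Slc2a1 at 1.28 and Hk2 at 1.03. The profiles share library depth and background, and the likeness was not tested.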

How the data were processed

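Sorted CD8 T cells were lysed and made into libraries with a SMART-Seq v4 ultra-low input kit, per the labels' protocols. No molecular identifiers were used, so reads are not independent molecules. FastQC 0.11.2, STAR 2.5.3a, featureCounts, Subread and edgeR, with build mm10, are named per the submitters' processing notes, with no settings. The authors deposited 1 table whose signal is CPM of a scaled library size, and its columns sum to different totals. Every value was a whole multiple of 1 read (100% within 1e-06 reads), and reads were recovered. The plan assumed plain CPM.

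Here log2(CPM + 1) was tested with limma 3.58.1 in R 4.3.3 on all 12 libraries, for the 22352 genes that reached 1 CPM in 3 or more libraries (1585 others were not tested). The p-values, two-sided, had Benjamini-Hochberg adjustment inside each of the 6 comparisons. The fits were tested on simulated data. Alternatives were other pseudocounts, filters and scalings, edgeR 4.0.16 and DESeq2 1.42.0 on recovered reads, a replicate block, library background and leaving out each library. Library background was split at the largest gap on a log scale (1323 unscaled CPM on receptor genes). Same-numbered libraries of day 30 and day 3 correlated in their deviations at 0.530, 0.284 and 0.165 and were taken as paired, although day 30 brain 2 with day 3 brain 3 gave 0.214 and day 30 brain 3 with day 3 brain 2 gave 0.180. In other comparisons same-numbered libraries were not taken as paired, although the replicate block was also run there as an alternative. In naive brain against naive blood their correlations were -0.036, -0.021 and 0.025. The 10 genes and all lists were chosen with earlier results of these data known. All 10 are named. Other pathway genes are named where called, or as isoenzymes of a step. Gene positions are from GENCODE on mm10.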

Additional observations from a re-analysis of the deposited data

How the results depend on the processing

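In naive brain against naive blood, 8 of the 10 genes were called as deposited and 5 to 8 with 1 library left out. The count was 5 with unscaled CPM, 3 with quantile normalization, 5 with edgeR, 5 with DESeq2, 0 with the background term and 9 with the replicate block. With the term Eno1 turned to -0.056, Gpi1 to -0.11, Pkm to -0.52 and Slc2a1 to -0.52, and Slc2a1 was at -0.017 with unscaled CPM. Against naive brain, Eno1 at day 30 turned to 0.21 with the term and 0.42 in low background libraries alone. Counts with 1 library left out ran from 0 to 4 at day 3 and 0 to 3 at day 30 against naive brain, and from 0 to 2 and 0 to 1 against blood. At day 3 against blood the count was 2 with unscaled CPM and 1 each with quantile normalization, edgeR, DESeq2 and the 2 groups alone. In day 30 against day 3 it was 0 under every alternative run, replicate block included. The block moved the count to 9 in naive brain against blood, where same-numbered libraries were not taken as paired. The causes were not tested. Naive brain and blood share no background class, so no value within a class could be had there. Pgk1 and Pgam1 had 0 reads in blood 1, whose floor of 3 reads is 1.62 CPM.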
